A study of Mus musculus with 2 samples.

Results

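The genes described here are the 7 mouse genes of cytosolic DNA sensing that the rule listed by name, Cgas, Tmem173, Tbk1, Irf3, Zbp1, Aim2 and Trex1, out of 32285 features measured. Tmem173 is the symbol under which the files hold the gene for STING. Of the 7 genes, 6 had at least 1 UMI (unique molecular identifier, the tag that counts single transcripts), and Trex1 had none in any barcode. The genes were taken by name and not by a rule on their values, although earlier results of these data were known when they were chosen. Each was followed through every cell class set by fixed marker genes, the tumour cells included.

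The data were 2 single-cell RNA libraries, 1 from a J558 allograft of a vehicle-treated mouse and 1 from a J558 allograft of a mouse given TAK-931, an inhibitor of the replication kinase CDC7. J558 is a plasmacytoma line of BALB/c origin, and its hosts were BALB/c females with intact immunity. TAK-931 was dosed orally at 60 mg/kg once daily and the tumours were taken on day 6, while vehicle mice received 0.5% methylcellulose. Each library came from the allograft of 1 mouse, so that treatment and animal cannot be told apart, and the comparison asked which cells of each tumour carried transcripts of the DNA sensing route.

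Cytosolic DNA is read by several routes. The enzyme cGAS, made from Cgas, binds DNA in the cytosol and produces the small messenger cGAMP, which binds STING on the endoplasmic reticulum, and STING then brings the kinase TBK1 to the transcription factor IRF3, which turns on type I interferon genes. AIM2 binds DNA and assembles an inflammasome that cuts interleukin precursors, ZBP1 recognises nucleic acids in the Z form and can start cell death, and TREX1 is a nuclease that clears DNA from the cytosol.

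In the annotation used here (GENCODE M21, build GRCm38), Cgas lay at chr9:78430526-78443237 on the minus strand, Zbp1 at chr2:173206612-173218923 (minus), Aim2 at chr1:173350879-173466040 (plus), Tbk1 at chr10:121546455-121586787 (minus), Irf3 at chr7:44997648-45002848 (plus) and Trex1 at chr9:109057933-109059734 (minus). Of the 7 genes, RefSeq upstream windows (build GRCm38.p6) were given for 5. The 250 bases before the RefSeq start of Cgas (chr9:78443238-78443487, minus strand) and of Aim2 (chr1:173420354-173420603, plus strand) are shown because, among the classes of at least 10 cells with a UMI, Cgas had its lowest and Aim2 its highest vehicle level in the tumour cells. The Aim2 window lies inside the GENCODE gene, whose annotated start is farther upstream. Capitals mark letters that match the NF-kB motif in a loose form, GGG and CC with 5 bases of any kind between them, on either strand.
Cgas: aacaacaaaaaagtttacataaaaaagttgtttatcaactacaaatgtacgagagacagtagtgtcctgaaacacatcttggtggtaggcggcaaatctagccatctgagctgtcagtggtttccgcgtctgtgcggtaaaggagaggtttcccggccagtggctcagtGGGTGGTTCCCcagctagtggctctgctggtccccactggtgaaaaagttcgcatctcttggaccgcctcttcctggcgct
Aim2: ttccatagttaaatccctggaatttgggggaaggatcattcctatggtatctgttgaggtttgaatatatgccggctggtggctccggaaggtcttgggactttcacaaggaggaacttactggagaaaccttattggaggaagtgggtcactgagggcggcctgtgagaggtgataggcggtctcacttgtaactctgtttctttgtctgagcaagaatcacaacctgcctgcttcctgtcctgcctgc
The Cgas window held 2 such matches, which overlap and lie 81 to 71 bases before the start, and the Aim2 window held 0. Neither held the core of the interferon-stimulated response element (GAAA and GAAA with 2 bases of any kind between them) or the gamma-activated site TTCNNNGAA on either strand, nor did the windows of Tbk1, Irf3 and Trex1. Of all 32851 windows of this length, 45.8% held the NF-kB form, 2.98% the response element core and 7.02% the gamma-activated site. A match describes the letters and not a bound factor.

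Trex1 shares its place in the genome with another gene on the same strand. All 1147 exonic bases of Trex1 (100%) also lie in exons of Atrip (chr9:109057933-109074124, minus strand), a partner of the DNA damage kinase ATR, and the whole Trex1 coding sequence of 942 bases is found in 2 of the 9 Atrip transcripts. None of the other 6 genes shares exonic bases with a same-strand gene. The first 60 coding bases (chr9:109058862-109058921, minus strand), with the start codon in capitals, read the same in Trex1 and in those Atrip transcripts, and a read from them cannot be given to 1 of the 2 genes by its sequence.
Trex1 and Atrip: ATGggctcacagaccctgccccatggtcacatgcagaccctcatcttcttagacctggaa
Trex1 had 0 UMIs in all 144767193 UMIs of the vehicle library and in all 77369283 of the TAK-931 library. Taking 3 counts over each library, a count of 0 allows up to 0.0207 and 0.0388 CPM (UMIs per 1000000 UMIs). This limit covers UMIs assigned to Trex1. It sets no bound on Trex1 transcripts, since every exonic base is shared with Atrip. Atrip, whose exons include that stretch, had 1733 UMIs in the vehicle library (11.97 CPM) and 733 in the TAK-931 library (9.47 CPM). The part of the shared exons in the count of 0 was not tested, and Trex1 is given by that count only.

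The vehicle library held 4565 barcodes and the TAK-931 library 6558, of which 3441 (75.4%) and 3488 (53.2%) had over 2000 genes and under 15% mitochondrial UMIs and were kept, with medians of 40504 and 15097 UMIs. Classes were set by marker gates and are called "-like" for that reason. The J558 plasmacytoma-like class, gated on plasma cell markers such as Sdc1 and Mzb1 and on Trap1a, held 2814 kept vehicle cells and 62 kept TAK-931 cells. The other vehicle and TAK-931 counts were 208 and 1833 monocyte/macrophage-like, 13 and 40 dendritic-like, 71 and 155 endothelial-like and 37 and 58 stromal-like cells. T, NK and plasmacytoid dendritic-like classes held 2 to 7 vehicle cells each, so they were described in the TAK-931 library only. Barcodes that passed the gates of more than 1 lineage (223 and 532) were kept apart as mixed, and 8 barcode sequences occurred in both libraries. Levels are CPM, here UMIs per 1000000 UMIs of the class. With 1 library in each group there was no replicate and no test, and every interval is an exact 95% interval for counting error only.

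**Figure D1:**
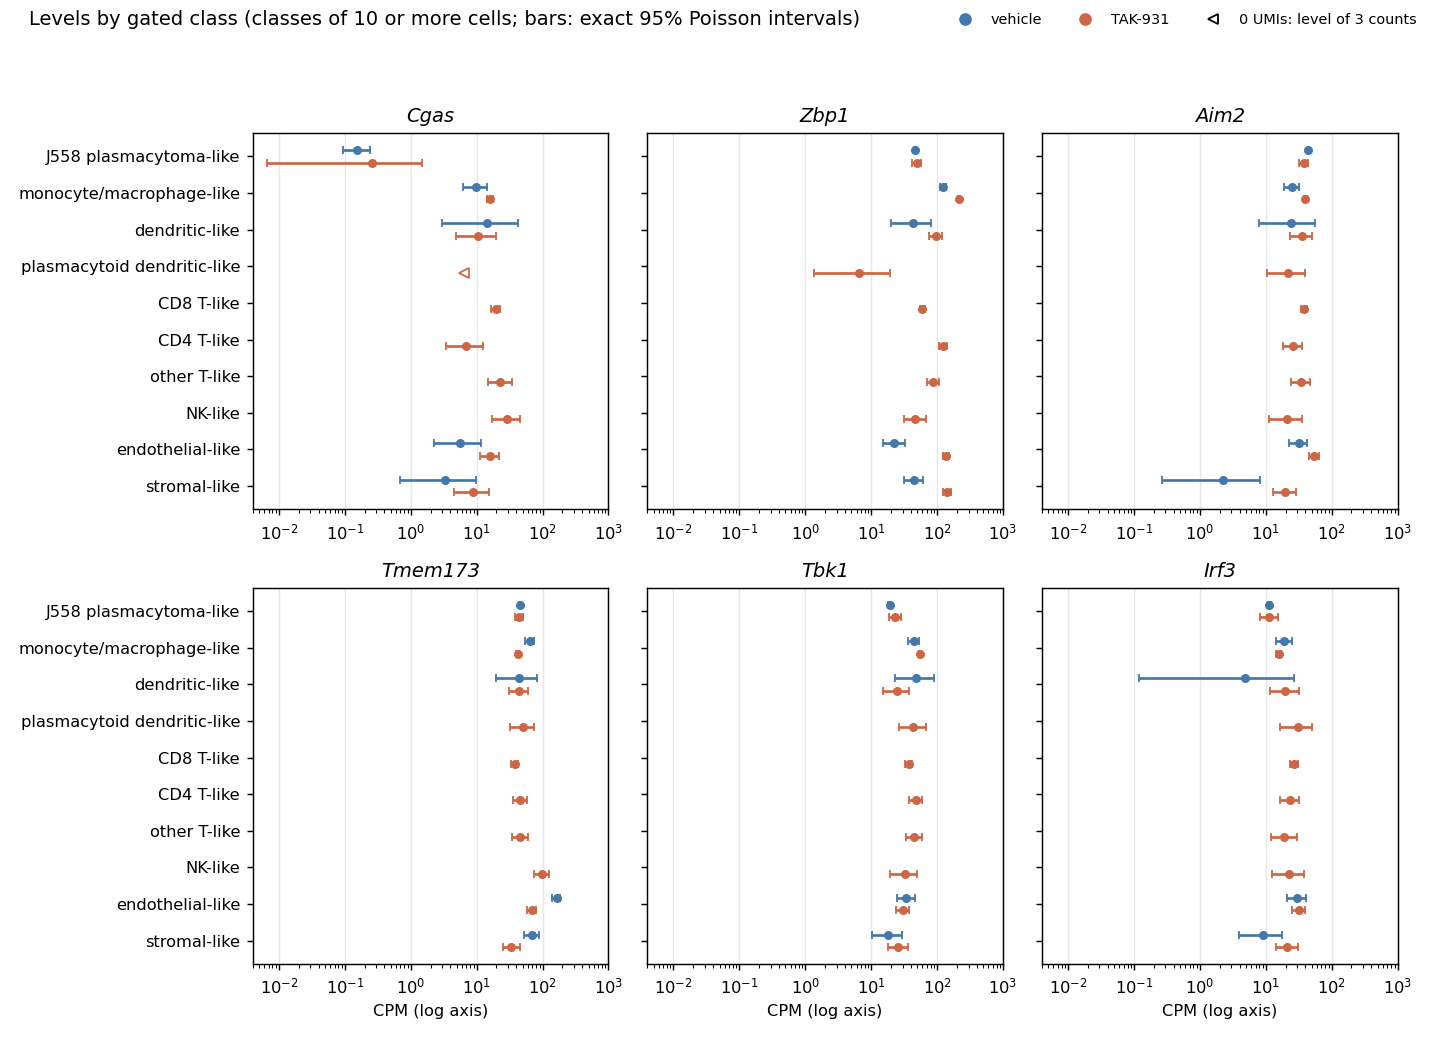
Level of 6 genes (CPM, log axis) in each gated class with at least 10 cells, vehicle in blue and TAK-931 in red, with exact 95% Poisson intervals and an open triangle at the level of 3 counts where no UMI was found. Cgas sat at 0.154 and 0.262 in the J558 plasmacytoma-like cells and between 3.36 and 28.9 in the other classes with a UMI, while the other 5 genes had J558 plasmacytoma-like levels between 11.3 and 49.0.

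Cgas, the enzyme that makes cGAMP, was nearly absent from the tumour cells. The 2814 vehicle J558 plasmacytoma-like cells held 19 Cgas UMIs among 123581037, a level of 0.154 CPM (0.0926 to 0.240), and the 62 TAK-931 cells held 1 UMI, a level of 0.262 (0.00664 to 1.46). Free RNA, estimated from marker genes of other lineages, would give 0.00804 and 0.123 CPM. The vehicle monocyte/macrophage-like level of 9.73 CPM (6.30 to 14.4, 25 UMIs) was 63.3-fold higher than that of the J558 plasmacytoma-like cells (log2 ratio -5.98 for tumour over macrophage, -6.93 to -5.07). In the TAK-931 library that ratio was -5.92 (-11.2 to -3.44). Of the classes of at least 10 cells with any Cgas UMI, the tumour cells had the lowest level in both libraries.

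The 19 UMIs of the vehicle tumour cells came from 19 cells with 1 UMI each. None of those cells had a UMI of the 6 macrophage gate markers (0 of 19, up to 17.7%) or of the 4 T cell markers, against 147 of 2795 (5.26%) and 72 of 2795 (2.58%) of the J558 plasmacytoma-like cells without Cgas. A UMI of the 6 endothelial markers was in 18 of the 19 (94.7%, 74.0 to 99.9) and in 2394 of the 2795 (85.7%, 84.3 to 86.9), and its part in the Cgas UMIs was not tested. The median depths of the cells with and without it were 42232 and 42236 UMIs.

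Outside the tumour cells, Cgas was found in the lymphoid, myeloid and vessel-lining classes. In the TAK-931 library its level was 28.9 CPM (17.1 to 45.7) in NK-like cells, 22.9 (14.8 to 33.9) in other T-like cells and 19.5 (16.7 to 22.7) in CD8 T-like cells. Endothelial-like cells had 16.01 (11.4 to 21.8), monocyte/macrophage-like cells 15.9 (14.5 to 17.4), dendritic-like cells 10.5 (4.81 to 19.98), stromal-like cells 8.81 (4.55 to 15.4) and CD4 T-like cells 6.94 (3.46 to 12.4). Neighbours in this order had overlapping intervals down to the CD4 T-like cells, whose interval lay above that of the tumour cells and below that of the CD8 T-like cells. Plasmacytoid dendritic-like cells had 0 Cgas UMIs among 458630, which allows up to 8.04 CPM. The free RNA estimate for these classes was between 0.151 and 0.305.

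Within classes, Cgas was higher in the TAK-931 library in macrophages and endothelium. It was 15.9 against 9.73 CPM in monocyte/macrophage-like cells (log2 ratio 0.71, 0.13 to 1.35) and 16.01 against 5.65 in endothelial-like cells (1.50, 0.33 to 2.91, from 40 and 7 UMIs). In stromal-like cells the ratio was 1.39 (-0.50 to 3.86, 12 and 3 UMIs) and in dendritic-like cells -0.45 (-2.46 to 2.07, 9 and 3 UMIs), and both intervals include 0. In the tumour cells it was 0.77 (-4.61 to 3.42), so a change there was not detectable at this depth. Over all kept cells the level was 14.1 against 0.624 CPM (4.50, 4.18 to 4.83). Changed shares of the classes in the UMIs, which also carry depth per cell, gave 75.6% of that difference, or 86.2% without the mixed and ungated barcodes. With the mean of each cell's CPM the log2 ratio was 3.60.

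Zbp1, the sensor of Z-form nucleic acids, was present in the tumour cells and was higher after TAK-931 in the 4 other classes compared. The J558 plasmacytoma-like level was 46.5 CPM (45.3 to 47.8) in the vehicle library and 49.0 (42.2 to 56.6) in the TAK-931 library, a log2 ratio of 0.08 (-0.14 to 0.29). The highest level in both libraries was in monocyte/macrophage-like cells, with 124 (111 to 139) in vehicle and 212 CPM (207 to 218) in TAK-931 cells, and the log2 ratio there was 0.77 (0.61 to 0.94). Endothelial-like cells had the lowest vehicle level of the 5 classes compared, 22.6 (15 to 32.6), and 136 (122 to 151) in the TAK-931 library, a ratio of 2.59 (2.03 to 3.20) from 28 and 340 UMIs. Stromal-like cells went from 44.8 (32.0 to 61.0) to 142 (122 to 163), a ratio of 1.66 (1.16 to 2.19), and dendritic-like cells from 43.2 (19.8 to 82.0) to 95.9 (76.3 to 119), a ratio of 1.15 (0.16 to 2.33).

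In the vehicle tumour the Zbp1 level of the endothelial-like cells was thus below that of the tumour cells (log2 ratio 1.04 for tumour over endothelial, 0.51 to 1.63), and in the TAK-931 tumour it was above (-1.47, -1.74 to -1.21). Among the lymphoid classes of the TAK-931 library, CD4 T-like cells had 125 CPM (108 to 144), other T-like cells 86.2 (69.7 to 106), CD8 T-like cells 59.4 (54.4 to 64.7) and NK-like cells 46.6 (31.2 to 66.9). The CD4 and CD8 T-like intervals did not overlap, in the opposite order to Cgas. Plasmacytoid dendritic-like cells had 3 Zbp1 UMIs, a level of 6.54 (1.35 to 19.1), with a free RNA estimate of 1.61.

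The 6 macrophage gate markers summed to 252 CPM in vehicle endothelial-like cells, with 3 of the 6 found and Csf1r, Fcgr1 and Ms4a7 at 0, and to 88.8 CPM with 6 of 6 found in TAK-931 endothelial-like cells. The 6 J558 markers summed to 140 and 8.40 CPM in them (5 of 6 found in both libraries), and their median mitochondrial share was 4.64% and 7.89%. The 6 neutrophil markers moved the other way in endothelial-like cells, from 12.1 CPM (15 UMIs, 3 of 6 found) to 80.4 (201 UMIs, 3 of 6 found), with Retnlg and Cxcr2 at 0 in both libraries. The T (0 to 6.40 CPM), stromal (5.65 to 19.2) and B cell (0 to 0.400) markers were also higher there in the TAK-931 library. The dendritic (335.5 to 192.5), plasmacytoid dendritic (9.68 to 1.60) and NK (0.806 to 0) markers were lower. In stromal-like cells the macrophage markers were 95.2 CPM (3 of 6) and 126 (6 of 6) and the J558 markers 481 (6 of 6) and 187 (4 of 6). The stromal-like median mitochondrial share was 3.29% and 4.86%. The part of these markers and shares in the endothelial and stromal ratios was not tested. Under the settings tried, free RNA subtraction included, the endothelial Zbp1 ratio lay between 2.20 and 2.88.

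Aim2, the inflammasome sensor, had its highest vehicle level in the tumour cells, among the classes of at least 10 cells. It was 44.3 CPM (43.1 to 45.4) in vehicle J558 plasmacytoma-like cells, above the 24.9 (19.2 to 31.8) of monocyte/macrophage-like cells (log2 ratio 0.83, 0.47 to 1.21) and the 31.5 (22.4 to 43.0) of endothelial-like cells (0.49, 0.04 to 0.99), while the dendritic-like interval (24.0, 7.79 to 56.0) overlapped it. In the TAK-931 library the tumour cells had 37.7 (31.8 to 44.4), a ratio to vehicle of -0.23 (-0.48 to 0.01) with an interval that includes 0. In macrophage, endothelial and stromal-like cells it was higher after TAK-931. Aim2 was 40.0 (37.8 to 42.4) in TAK-931 monocyte/macrophage-like cells, a ratio of 0.69 (0.32 to 1.07), and 54.0 (45.3 to 64.0) in endothelial-like cells, a ratio of 0.78 (0.26 to 1.33). Stromal-like cells had 2 UMIs in the vehicle library and 27 in the TAK-931 library (2.24 and 19.8 CPM, ratio 3.15, 1.15 to 6.26), with a free RNA estimate of 0.913 for the former. The dendritic-like ratio was 0.55 (-0.83 to 2.27).

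After TAK-931 the Aim2 levels of the tumour and the monocyte/macrophage-like cells were close (log2 ratio -0.09, -0.35 to 0.17). The endothelial-like level was the highest among the classes of at least 10 cells of that library, and its interval lay above that of the monocyte/macrophage-like cells. The CD8 T-like (38.1), dendritic-like (35.1), other T-like (33.9), CD4 T-like (25.9), plasmacytoid dendritic-like (21.8), NK-like (20.9) and stromal-like (19.8 CPM) levels followed with overlapping intervals between neighbours. Aim2 therefore had UMIs in every class of at least 10 cells.

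Tmem173 encodes STING, the receptor of cGAMP, and lay at 35733679 to 35740554 on the minus strand of chromosome 18. The tumour cells, with next to no Cgas, carried it. Their level was 45.5 CPM (44.3 to 46.7) in the vehicle library and 44.0 (37.6 to 51.2) in the TAK-931 library, a log2 ratio of -0.05 (-0.28 to 0.17). The vehicle level was highest in endothelial-like cells, at 163 (141 to 187), and it was 69.5 (53.3 to 89.0) in stromal-like and 64.6 (55.1 to 75.2) in monocyte/macrophage-like cells. All 3 of those levels were lower in the TAK-931 library. Endothelial-like cells had 68.4 (58.6 to 79.5), a ratio of -1.25 (-1.55 to -0.95), stromal-like cells 33.8 (24.7 to 45.0), a ratio of -1.04 (-1.62 to -0.47), and monocyte/macrophage-like cells 42.3 (40.0 to 44.7), a ratio of -0.61 (-0.85 to -0.37). Dendritic-like cells had 43.2 and 43.3 CPM, a ratio of 0.00 (-1.08 to 1.24).

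In the TAK-931 library NK-like cells had the highest Tmem173 level, 97.9 CPM (74.9 to 126), with an interval that overlaps that of the endothelial-like cells. The T-like classes lay between 37.7 and 45.9 and the plasmacytoid dendritic-like cells at 50.2. Within endothelial and stromal-like cells the sensor Zbp1 was thus higher and the adaptor Tmem173 lower in the TAK-931 library, from the same cells and the same UMI totals.

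Tbk1, the kinase that STING recruits, was lower in the tumour cells than in macrophages in both libraries. The J558 plasmacytoma-like level was 19.0 CPM (18.2 to 19.8) in the vehicle library and 23.3 (18.7 to 28.7) in the TAK-931 library, a log2 ratio of 0.30 (-0.03 to 0.60). Monocyte/macrophage-like cells had 44.0 (36.2 to 52.9) and 55.1 (52.4 to 57.8), a ratio of 0.32 (0.05 to 0.61). Tumour over macrophage was -1.21 (-1.49 to -0.93) in the vehicle library and -1.24 (-1.56 to -0.93) in the TAK-931 library. In endothelial-like cells the levels were 33.9 and 30.0 (ratio -0.17, -0.74 to 0.41), in stromal-like cells 17.9 and 25.7 (0.52, -0.37 to 1.47) and in dendritic-like cells 48.0 and 24.6 (-0.97, -2.12 to 0.28). The T-like, NK-like and plasmacytoid dendritic-like levels of the TAK-931 library lay between 32.1 and 47.3.

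Irf3, the factor at the end of the route, had ratios near 0 in tumour, macrophage and endothelial-like cells. Its J558 plasmacytoma-like level was 11.3 CPM in both libraries (10.7 to 11.9 and 8.16 to 15.2), a log2 ratio of 0.00 (-0.47 to 0.44). The monocyte/macrophage-like levels were 19.1 (14.1 to 25.2) and 15.8 (14.4 to 17.3), a ratio of -0.27 (-0.70 to 0.18), and the endothelial-like levels 29.8 and 31.6 (0.08, -0.50 to 0.69). Stromal-like cells went from 8.96 (3.87 to 17.7) to 21.3 (14.3 to 30.6), a ratio of 1.25 (0.08 to 2.59) from 8 and 29 UMIs. Dendritic-like cells had 1 and 17 UMIs (ratio 2.05, -0.62 to 7.44). Among lymphoid classes after TAK-931, CD8 T-like cells had 26.9 CPM (23.6 to 30.6), above the monocyte/macrophage-like cells (ratio 0.77, 0.54 to 1.00).

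**Figure D2:**
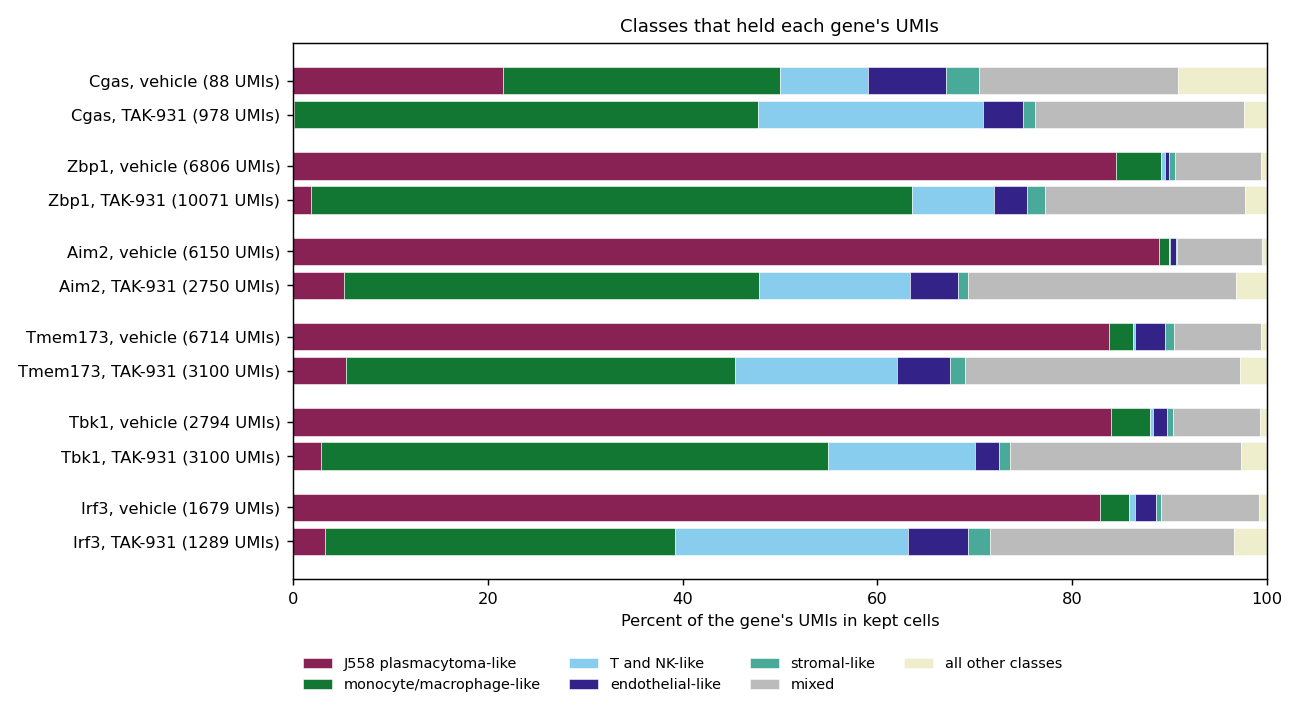
Percent of each gene's UMIs in kept cells held by each class, 1 bar per gene and library, with the number of UMIs beside the bar. J558 plasmacytoma-like cells held 21.6% of the 88 vehicle Cgas UMIs and between 82.9% and 88.9% of those of the other 5 genes, and in the TAK-931 library monocyte/macrophage-like cells held 47.7% of the 978 Cgas UMIs.

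The classes that held most transcripts of the route differed between the tumours. In the vehicle library J558 plasmacytoma-like cells held 84.5% of the Zbp1 UMIs, 88.9% of those of Aim2, 83.8% of those of Tmem173, 84.0% of those of Tbk1 and 82.9% of those of Irf3. In the TAK-931 library they held at most 5.42%, and monocyte/macrophage-like cells held between 35.8% and 61.7%. The J558 plasmacytoma-like share of kept cells was 81.8% and 1.78%, and its share of their UMIs was 87.6% and 5.505%. The kept cells and their UMI totals set these shares, and fewer tumour cells in the tissue cannot be told apart from fewer that passed dissociation and the filter.

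Over all kept cells the level of Zbp1 was 145 CPM against 48.3 (log2 ratio 1.59, 1.55 to 1.64) and that of Tbk1 44.7 against 19.8 (1.18, 1.10 to 1.25). Class shares, again of UMIs, gave 64.6% and 63.6% of these differences. For Irf3 (18.6 against 11.9, ratio 0.64, 0.54 to 0.75) they gave 102.8%, and the levels within classes changed it by -0.185 CPM. Tmem173 (44.7 against 47.6, ratio -0.09, -0.15 to -0.03) combined a gain of 6.31 CPM from class shares with a loss of 9.19 within classes. Aim2 (39.7 against 43.6, ratio -0.14, -0.20 to -0.07) combined a loss from class shares with a gain of 1.12 within classes. These sums count the mixed barcodes as a class of their own, although their lineages differed, with the J558 and endothelial gates passed by 145 of 223 (65.0%) in the vehicle library and the commonest pair in the TAK-931 library being macrophage and T or NK (108 of 532, 20.3%). The part of the mixed barcodes in the changes within classes was 1.72 CPM for Cgas, 10.6 for Zbp1, 3.28 for Tbk1, 0.543 for Irf3, -0.662 for Tmem173 and -0.799 for Aim2. Without mixed and ungated barcodes the class shares gave 71.8% for Zbp1, 73.4% for Tbk1 and 113.7% for Irf3, and the levels within classes changed Irf3 by -0.992, Tmem173 by -11.2 and Aim2 by 3.19 CPM.

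**Figure D3:**
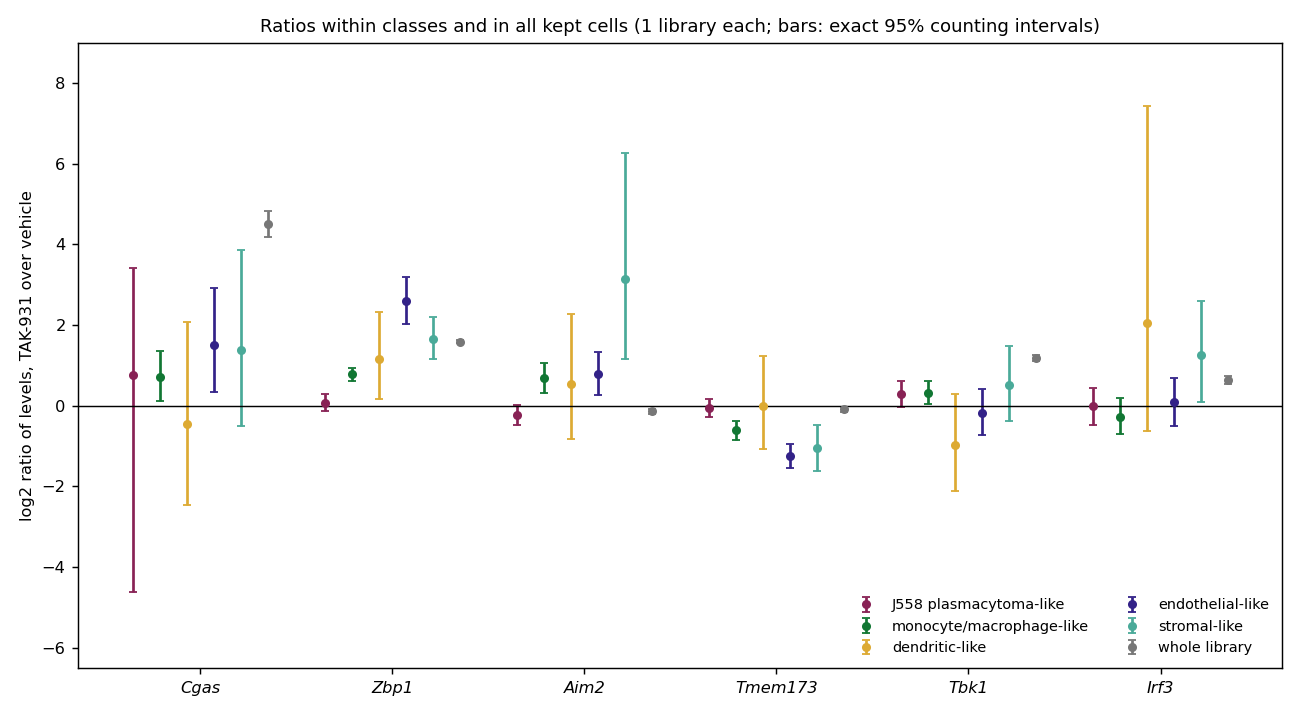
log2 ratio of levels, TAK-931 over vehicle, for 6 genes in 5 gated classes and over all kept cells, with exact 95% counting intervals and 1 library behind each side. The interval of Zbp1 lay above 0 in every class but the J558 plasmacytoma-like cells (0.08, -0.14 to 0.29), Tmem173 below 0 in monocyte/macrophage, endothelial and stromal-like cells, and Cgas over all kept cells stood at 4.50.

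Counts of members past 2-fold were read against those over every gene that had 10 or more UMIs when the libraries were added. In the J558 plasmacytoma-like cells 0 of the 6 genes with UMIs were at least 2-fold higher or lower, against 9.26% and 7.54% of all 14343 genes, and the members' median log2 ratio was 0.04 against -0.01. In monocyte/macrophage-like cells 0 were past 2-fold (13.0% of all genes higher, 8.95% lower), with medians of 0.51 over the members and 0.00 over all genes. Endothelial-like cells had 2 of 6 at least 2-fold higher, Cgas and Zbp1, and 1 lower, Tmem173, against 8.69% and 12.1% of all genes. Cgas was not past 2-fold there with classes from clusters (0.64), nor Tmem173 with median-ratio scaling (-0.97), under which Aim2 was (1.06). The members' median there was 0.43 against -0.16.

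Stromal-like cells had 4 of 6 at least 2-fold higher and 1 lower, against 12.8% and 9.64%, with medians of 1.32 and -0.04, and the Cgas interval among the 4 included 0. Irf3 was not past 2-fold there with clusters (0.66) or 1 marker more (0.93), nor Tmem173 with median-ratio scaling (-0.83) or under 10% mitochondrial UMIs (-0.97), while Tbk1 was with clusters (1.13). Dendritic-like cells had 2 of 6 higher and 0 lower, against 16.9% and 7.39%, and of the pair the interval of Zbp1 lay above 0 and that of Irf3 did not. The medians were 0.28 and 0.08. Over all kept cells 3 of 6 were at least 2-fold higher and 0 lower, against 37.3% and 19.0%, with medians of 0.91 and 0.33. The log2 shift that median-ratio scaling subtracts from each CPM ratio was -0.28 in endothelial-like, -0.22 in stromal-like and -0.11 in monocyte/macrophage-like cells and 0.16 over all kept cells, and that scaling turned the sign of 1 member value, endothelial-like Tbk1 (-0.17 to 0.11), whose interval includes 0.

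Cells with a UMI of both Cgas and Tmem173, the enzyme and the receptor of cGAMP, were few among the tumour cells. Unthinned, they were 14 of 2814 vehicle J558 plasmacytoma-like cells (0.498%, 0.272 to 0.833, median depth 42234 UMIs) and 1 of 62 TAK-931 cells (1.61%). They were 10 of 208 vehicle monocyte/macrophage-like cells (4.81%, 2.33 to 8.66, median 10362) and 147 of 1833 TAK-931 cells (8.02%, 6.82 to 9.36, median 14307), and 60 of 473 TAK-931 CD8 T-like cells (12.7%, 9.82 to 16.02, median 14221). With every cell thinned to 4000 UMIs the counts fell to 0 of 2814, 0 of 62, 0 of 208, 10 of 1833 (0.546%) and 1 of 473 (0.211%). A thinned 0 of 2814 allows up to 0.131% of cells with a UMI of both genes at that depth, which sets no limit on cells that express both. The thinned vehicle and TAK-931 macrophage shares cannot be ordered at this depth (up to 1.76% for 0 of 208).

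The monocyte/macrophage-like class was divided by its complement C1q transcripts, a tissue macrophage feature, at 10 per 10000 UMIs. The 124 vehicle and 1070 TAK-931 C1q-high cells had Zbp1 levels of 83.6 and 162 CPM, and the 84 and 763 other cells 227 and 312. C1q-high cells were lower in both libraries (log2 ratio -1.44, -1.76 to -1.11, and -0.95, -1.02 to -0.87), and Zbp1 was higher after TAK-931 in both states (0.95, 0.72 to 1.20, and 0.46, 0.23 to 0.70). Tmem173 was 64.6 and 64.5 CPM in the vehicle C1q-high and other cells. In the TAK-931 library it was 34.5 in C1q-high cells (ratio to vehicle -0.90, -1.19 to -0.61) and 57.6 in the others (-0.16, -0.59 to 0.30), and these intervals did not overlap. Aim2 was higher in both states, with ratios of 0.50 (0.10 to 0.92) and 1.45 (0.55 to 2.52). The Cgas ratios were 0.66 (-0.008 to 1.41) and 0.88 (-0.28 to 2.35). Those of Tbk1 were 0.23 (-0.10 to 0.58) and 0.46 (-0.04 to 1.001). For both genes the intervals include 0 in each state, unlike in the class as a whole.

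Tumour cells were also read as dividing, with at least 2 UMIs of both Mki67 and Top2a, or non-dividing, with under 2 of each. In the vehicle library 1371 dividing and 578 non-dividing J558 plasmacytoma-like cells had 11 and 1 Cgas UMIs (0.151 and 0.0541 CPM), so Cgas was near 0 in both. Zbp1 was lower in dividing cells (44.2 against 51.4, log2 ratio -0.22, -0.32 to -0.11), Tmem173 was lower (43.9 against 49.0, -0.16, -0.27 to -0.05) and Tbk1 and Irf3 were higher (19.9 against 15.6, 0.35, 0.17 to 0.54, and 0.28, 0.05 to 0.52). The Aim2 ratio was 0.11 (-0.001 to 0.23), with an interval that includes 0. Median depths of the 2 states were 51172 and 32591 UMIs in the vehicle library and 75622 and 24783 in the TAK-931 library. For cells that met neither limit they were 36631 and 45790.5. A limit of 2 UMIs depends on depth, so the states may not be cut alike in the 2 libraries. Among dividing cells Aim2 was 31.9 in the 35 TAK-931 cells against 45.1 in the vehicle cells (-0.50, -0.82 to -0.19), while Zbp1 was 39.1 against 44.2 (-0.18, -0.47 to 0.10). In the 18 TAK-931 cells that met neither limit, against 865 vehicle cells, Aim2 was 54.4 against 43.9 (0.31, -0.16 to 0.74) and Zbp1 73.0 against 49.0 (0.57, 0.17 to 0.95), and in the 9 non-dividing TAK-931 cells the ratios were 0.27 (-0.74 to 1.12) for Aim2 and 0.75 (0.02 to 1.41) for Zbp1, from 11 and 19 UMIs. For both genes the interval of the dividing cells did not overlap that of the cells between the limits.

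The other genes of the route were taken from lists of 57 genes, of which 56 were in the features, and named by a rule on size (at least 2-fold, at least 20 UMIs, interval without 0). In J558 plasmacytoma-like cells 5 of the 48 genes counted were at least 2-fold higher with such an interval and 0 lower, against 4.47% and 2.30% of all genes. Those named were Il1b and Il18, cytokines matured by the inflammasome (log2 ratios 3.21, 1.87 to 4.38, and 1.70, 1.04 to 2.29), Ikbke, a kinase close to TBK1 (1.68, 0.64 to 2.58), and Mndal of the DNA-binding IFI200 family (1.61, 1.17 to 2.02). Their TAK-931 levels were 2.10, 6.55, 2.88 and 13.6 CPM, from 8, 25, 11 and 52 UMIs. The free RNA estimate for Il1b was 0.249 CPM for vehicle and 2.24 for TAK-931, above its levels of 0.227 and 2.10, so that Il1b is read as background there and not as a difference. For the other 3 the estimates were between 0.0189 and 1.54 CPM, below their levels. The fifth gene, beyond the 4 that the rule names, was Pycard, the ASC adaptor of AIM2, at 184 against 75.3 CPM (1.29, 1.18 to 1.40, from 701 and 9299 UMIs). The 6 macrophage gate markers, all found in these cells, summed to 1.29 CPM for vehicle and 12.8 for TAK-931. The T cell markers summed to 0.623 and 4.98 CPM (3 and 4 of 4 found), the stromal markers to 2.44 and 13.1 (8 and 6 of 8) and the neutrophil markers to 2.47 and 6.29 (6 and 5 of 6), while the endothelial and dendritic sums were lower in the TAK-931 cells (49.3 against 59.2 and 6.82 against 10.1), and their part in these ratios was not tested.

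In monocyte/macrophage-like cells 1 of 49 genes was higher and 5 were lower, against 4.49% and 6.43% of all genes. Casp4, an inflammatory caspase, was 138 against 59.5 CPM (1.21, 0.98 to 1.46). Il18 was 35.4 against 118 (-1.74, -1.92 to -1.55), Enpp1, the enzyme that degrades cGAMP outside cells, 12.4 against 35.4 (-1.52, -1.85 to -1.17), and Slc19a1, a cGAMP importer, 1.84 against 7.39 (-2.004, -2.78 to -1.17). Rnaseh2b, a subunit of the nuclease that removes RNA from DNA, was 8.70 against 22.6 (-1.38, -1.79 to -0.94). The fifth lower gene, beyond the 4 that the rule names, was Rnaseh2a, the catalytic subunit of that nuclease, at 14.1 against 30.7 (-1.13, -1.48 to -0.76). Enpp1 and Slc19a1 had vehicle levels of 116 and 25.6 CPM in J558 plasmacytoma-like cells, and the 6 J558 gate markers, all found, summed to 62.3 CPM in vehicle and 32.6 in TAK-931 macrophage-like cells. The free RNA estimates in vehicle and TAK-931 macrophage-like cells were 2.04 and 0.363 CPM for Enpp1 and 0.452 and 0.0948 for Slc19a1, below their levels. The part of tumour RNA in these ratios was not tested.

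In endothelial-like cells 8 of 37 genes were higher and 2 lower, against 5.60% and 9.79% of all genes. Irf7, an interferon-inducible relative of Irf3, was 208 against 46.0 CPM (2.18, 1.78 to 2.60), the IFI200 genes Ifi204 and Ifi207 had ratios of 2.51 (1.69 to 3.45) and 4.99 (2.46 to 10.3, 64 and 1 UMIs), and Pycard 58.0 against 12.9 (2.17, 1.42 to 3.01). Abcc1, a cGAMP exporter, was 11.2 against 22.6 (-1.01, -1.82 to -0.20), and the other lower gene was Enpp1 (-2.43, -4.98 to -0.37), with 3 and 8 UMIs, under the limit of 20. Stromal-like cells had 11 of 39 higher and 3 lower, against 9.04% and 6.67%. Irf7 was 129 against 4.48 CPM (4.85, 3.47 to 6.74), Ifi205 80.0 against 10.1 (2.99, 2.01 to 4.16), Casp4 141 against 41.5 (1.77, 1.25 to 2.31) and Pycard 41.8 against 12.3 (1.76, 0.82 to 2.84). Rnaseh2a (-2.46, -4.24 to -0.98), Abcc1 (-1.17, -2.004 to -0.37) and Azi2, an adaptor of TBK1 (-1.03, -1.63 to -0.45), were lower.

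In dendritic-like cells, where 4.21% of all genes were higher and 3.08% lower, 3 of 36 were higher, Ifi211 (2.47, 1.07 to 4.38), Ifi204 (1.53, 0.42 to 2.89) and Ifi207 (1.11, 0.34 to 1.99), and 2 were lower, the secreted nuclease gene Dnase1l3 (-3.13, -3.78 to -2.50) and Traf3 (-1.30, -2.28 to -0.27). Of the IFI200 family, 3 of 7 measured genes were higher past these limits in dendritic-like cells (4.21% of all genes), 3 of 5 in endothelial-like (5.60%) and 5 of 6 in stromal-like cells (9.04%). In monocyte/macrophage-like cells it was 0 of 9 (4.49%) and in J558 plasmacytoma-like cells 1 of 9 (4.47%). This family was 1 of the lists read, the genes measured differed between classes, and the difference between classes was not tested. Over all kept cells 33 of 52 were higher and 4 lower, against 36.0% and 17.8%, led by Casp4 (5.00, 4.86 to 5.14), Ifi211 (4.39, 4.24 to 4.54), Ifi204 (4.39, 4.30 to 4.47) and Ifi205 (4.31, 4.02 to 4.61), with Ifi213 (-3.00, -3.45 to -2.58), Enpp1 (-2.77, -2.86 to -2.68), Slc19a1 (-2.46, -2.64 to -2.30) and Banf1, a DNA-shielding factor (-1.37, -1.41 to -1.34), lower. The interferon ligands were close to 0. Ifnb1 had 2 UMIs in vehicle tumour cells, 4 in TAK-931 macrophage-like cells and 4 in vehicle stromal-like cells. In all kept cells together it had 8 vehicle and 11 TAK-931 UMIs (0.0567 and 0.159 CPM, 1.48, 0.04 to 3.002) and is among the 33 higher genes. Ifna1, Ifna2, Ifna4 and Ifna12 had 0 in the classes read.

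**Figure D4:**
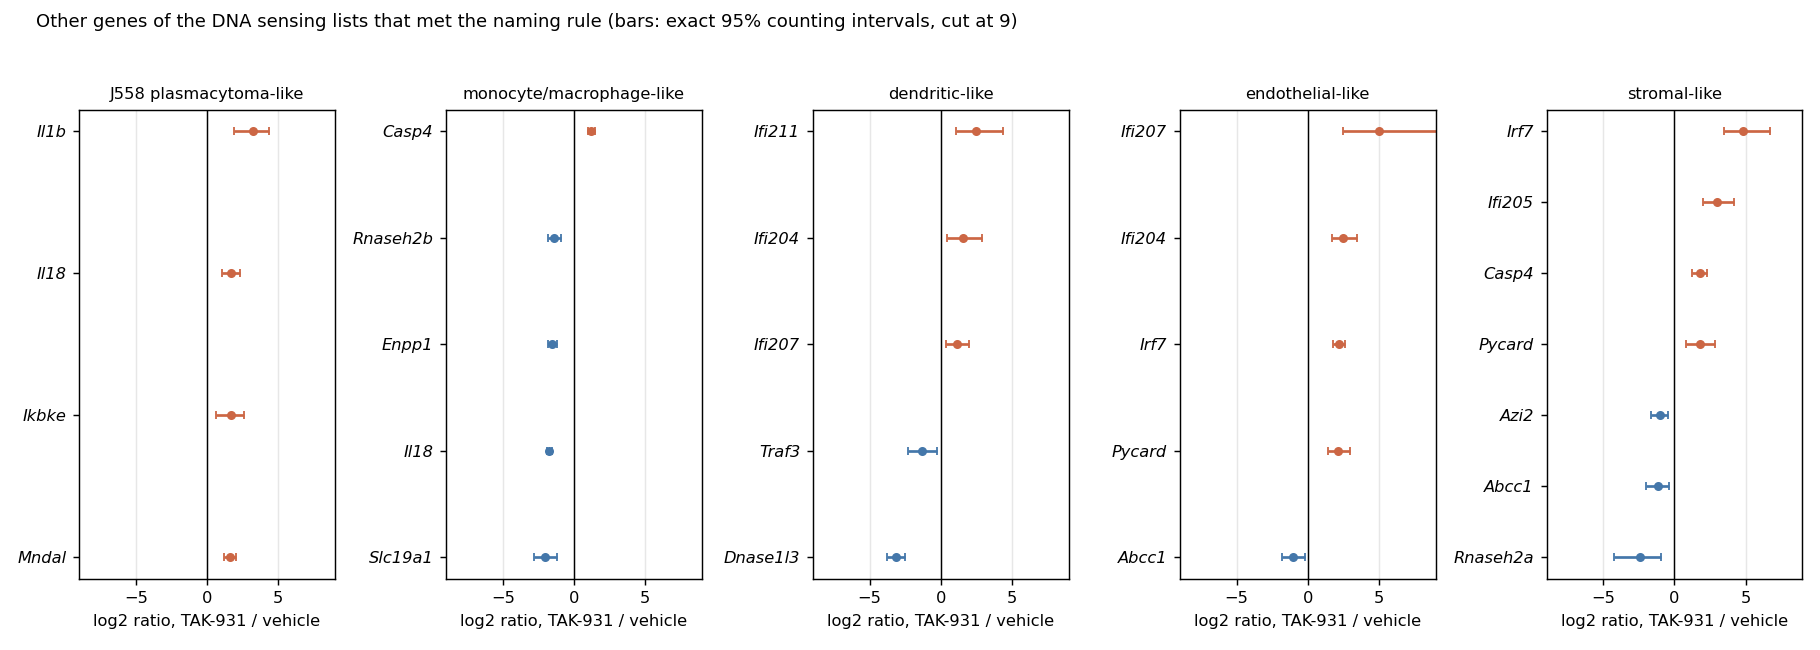
log2 ratio of levels, TAK-931 over vehicle, for the other genes of the DNA sensing lists that met the naming rule in each of 5 gated classes, with exact 95% counting intervals cut at 9. Irf7 stood at 2.18 in endothelial-like and 4.85 in stromal-like cells, and the lower genes drawn for macrophage-like cells were Il18, Enpp1, Slc19a1 and Rnaseh2b. Il1b in J558 plasmacytoma-like cells (3.21) was at the level of its free RNA estimate.

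Partners of the sensors were unevenly spread over the classes, and the genes of this paragraph were chosen after their values were seen. Ripk3, the kinase through which ZBP1 starts necroptosis, was 0.178 CPM in vehicle J558 plasmacytoma-like cells against 40.1 in monocyte/macrophage-like and 109.7 in endothelial-like cells, so the tumour cells carried the sensor with almost none of this partner. Casp1, the protease of the AIM2 inflammasome, was 3.53 against 49.0 and 19.4, and Gsdmd, the pore protein it cuts, 0.817 against 44.8 and 24.2. Pycard was 75.3 in those tumour cells, against 168 and 12.9. Enpp1, also known as the plasma cell antigen PC-1, was 116 in vehicle and 62.1 in TAK-931 J558 plasmacytoma-like cells and at most 35.4 in the other classes read.

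The genes whose levels over 14 class sums ran closest to each member were read from the Pearson r of log2 values, given as a description over sums that share libraries and depth. For Cgas they were Gm27010 (0.91), Dusp2 (0.91) and Med4 (0.91), and for Tmem173 Gm9917 (0.87), Gm47439 (0.85) and Cyren (0.84). For Tbk1 they were Cwc25 (0.92), Patl1 (0.90) and BC005537 (0.87), and for Irf3 Iffo1 (0.90), Tut7 (0.87) and Atf7ip (0.86). For Zbp1 they were Gm15987 (0.87), Bcl2l1 (0.82) and Coq10b (0.82), and for Aim2 Rad9a (0.82), Mtmr12 (0.81) and Sod1 (0.81). No member was among the closest genes of another.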

How the data were processed

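Cells of 1 vehicle and 1 TAK-931 J558 allograft were run by the authors on droplet 3′ chemistry (v3.1), and the deposited matrices hold raw UMI counts per gene and barcode, with no normalization. The submitters' processing notes name Cell Ranger 6.0.0 and mm10, whereas the methods name a human build, and the deposited features are mouse genes. The members and lists were chosen with earlier results of these data known.

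As the methods state, a barcode was kept if it had more than 2000 genes and a mitochondrial share below 15%. A cell entered a class with a UMI of at least 3 markers of 1 lineage (2 for T, NK and plasmacytoid dendritic cells, and at least 2 UMIs per marker for J558). Barcodes passing 2 lineages were left out as mixed, and no doublet caller was run. Counts were summed per class and library and given as CPM, with exact Poisson, Clopper-Pearson and binomial split intervals at 95%, which cover counting error only. Ratios needed 10 UMIs in both sums together, and 0.5 was added to both counts where 1 was 0. The part from class shares used each class's share of UMIs and not of cells, at the mean level of both libraries. Mixed barcodes were a class there, and the same split without them was added after seeing the data. Free RNA was estimated as the median ratio, class over library, of other lineages' markers with at least 20 CPM, and these marker lists were chosen after seeing the data. Cells were thinned to 4000 UMIs for shares (seed 1). Named pathway genes were up to 4 per direction, at least 2-fold with at least 20 UMIs and an interval without 0, and like genes the 3 with the highest r of log2 of the level plus 5, over sums of at least 20 cells. The ratio and interval steps were tested on simulated data.

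Alternatives were other gene and mitochondrial limits, 1 marker more or fewer, Leiden clusters (2000 variable genes, 20 components, resolution 0.5), removal of very deep barcodes, median-ratio scaling, free RNA subtraction, the mean of each cell's level and other UMI minima. Giving mixed barcodes to 1 lineage was added after seeing the data. Python 3.11.15, numpy 2.4.6, scipy 1.17.1, pandas 2.3.3, scanpy 1.11.5, igraph 0.11.9 and matplotlib 3.10.9 were used.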

Additional observations from a re-analysis of the deposited data

Results flagged for a closer look

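Barcodes with no more than 2000 genes were left out of the values as reported, and entered under the lower gene limits tried, and in the TAK-931 library 1663 of them that failed on genes alone still carried 4 members above the level of the 950 such vehicle barcodes. Cgas was 7.83 CPM (5.51 to 10.8) against 0.986 (0.203 to 2.88), Tbk1 40.2 (34.7 to 46.3) against 20.7 (15.9 to 26.5), Irf3 23.3 (19.1 to 28.0) against 8.88 (5.85 to 12.9) and Zbp1 137.5 (127 to 148) against 65.8 (57.0 to 75.5). The classes in these barcodes were not read, so cell types and levels cannot be told apart there.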

How the results depend on the processing

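No paired analysis was possible because each group is 1 library and no result comes from a test. Of 445 member values recomputed under the alternatives, 431 stayed inside the counting interval and 14 left it. The other UMI minima left cells and counts as they were, so their values equal those reported. Those values lie inside the interval by construction and are among the 431. The sign turned in 24 values of 9 gene and class pairs, in J558 plasmacytoma-like (Cgas, Irf3, Tbk1, Tmem173, Zbp1), dendritic-like (Cgas, Tmem173) and endothelial-like cells (Irf3, Tbk1), and in all 24 the ratio as reported had an interval that includes 0. No ratio with an interval without 0 changed sign. In J558 plasmacytoma-like cells Cgas turned from 0.77 to -0.96 with 1 marker more, and with 1 marker fewer Tbk1 turned from 0.30 to -0.20 and Tmem173 from -0.05 to 0.32, both outside their intervals. Over all kept cells the members' median ratio of 0.91 became 0.75 with median-ratio scaling. Members past 2-fold in J558 plasmacytoma-like cells became 1 in place of 0 with 1 marker fewer (Aim2, -1.12, from 477 and 14 cells) and with clusters, the mean of each cell's level or mixed barcodes assigned (Cgas, 1.71, 2.64 and 2.02, from a few UMIs on the TAK-931 side). In dendritic-like cells 2 became 1 with clusters and with at least 50 UMIs, and Tbk1 passed 2-fold lower with free RNA subtracted (-1.04). Endothelial-like cells lost Cgas (0.64, clusters) and Tmem173 (-0.97, median-ratio scaling) and gained Aim2 (1.06, the same scaling), and with at least 50 UMIs had 2 past 2-fold in place of 3, since Cgas was no longer counted, and stromal-like cells lost Irf3 and Tmem173 under 2 settings each and gained Tbk1 under 1, and had 2 past 2-fold in place of 5 with at least 50 UMIs. The Cgas ratio over all kept cells was 3.60 in place of 4.50 with the mean of each cell's level. The causes were not tested. Dendritic-like cells with 1 marker more or fewer and stromal-like cells with 1 fewer left under 10 cells and gave no value, and neither gates nor free RNA apply over all kept cells. In the TAK-931 tumour cells 1 Cgas UMI leaves the ratio of that gene unresolved, and the 13 vehicle dendritic-like cells hold 208321 UMIs in all.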

Other observations

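Plasmacytoid dendritic-like cells, 44 of them in the TAK-931 library, had transcripts of the endosomal DNA route. Unc93b1, which brings nucleic acid receptors to endosomes, was 491 CPM, Irf7 297 and Tlr9, the endosomal DNA receptor, 10.9 (from 5 UMIs), against 435, 399 and 2.18 in the monocyte/macrophage-like cells of that library, and Cgas had 0 UMIs in the plasmacytoid dendritic-like cells, against a level of 15.9. Tlr9 had 0 UMIs in the TAK-931 CD8 T, CD4 T, NK, dendritic, endothelial and stromal-like cells. The levels of these genes were picked after their values were seen. Mixed barcodes, which passed the gates of more than 1 lineage, had Cgas levels of 1.56 CPM (0.925 to 2.47) in 223 vehicle and 11.6 (10.1 to 13.3) in 532 TAK-931 barcodes. Of the vehicle mixed barcodes, 145 passed the J558 and endothelial gates.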
